A study of Mus musculus with 2 samples.

Results

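Mitosis and spindle genes, which encode the cyclins, kinases, motors and chromosome proteins that carry a cell through division, were examined in mouse embryo fibroblasts (MEFs) with and without Ebp1. The set was listed by gene name from known functions, with no expression value in its rule. For 45 of its 46 genes a probe set with 1 annotated gene symbol was found, among 18193 such genes on the array, and the 45 genes had 106 probe sets. Ccnb1, the gene of cyclin B1, had none here and was not analysed. Where a gene had more than 1 probe set, its reported value is that of the probe set with the highest mean log2 signal over both arrays.

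MEFs were derived from embryos of 12.5 days and used at passage 2 in medium with 10% fetal bovine serum. Wild type MEFs were compared with Ebp1 knock out MEFs, which carry a retroviral gene trap in the Ebp1 (Pa2g4) gene in every cell and come from a line made from 1 embryonic stem cell clone and kept on a mixed background of C57BL/6 and the strain of those stem cells. There was 1 array per genotype, so no error, p-value or replicate check can be given for any signal or ratio, and the sources used here do not state how many embryos gave each RNA. The study asked how loss of Ebp1 alters the expression of growth-related genes in MEFs.

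The values were linear MAS5 signals in intensity units, and ratios are given as log2 of knock out over wild type, so that a negative value means a lower signal in knock out MEFs. Pa2g4 itself measured 1835 on the wild type array and 1178 on the knock out array, and each of its 5 probe sets had a negative log2 ratio, from -0.90 to -0.33. The sources used here do not say where these probe sets lie relative to the trap. The study itself found no Ebp1 transcript by RT-PCR and no Ebp1 protein by Western blot in knock out MEFs. What gives the remaining array signal was not tested. All 8 fibroblast markers measured, among them the collagen genes Col1a1 and Col1a2, were over 500 on both arrays. No endothelial or blood marker reached 500 on either array, while of 6 neural markers Map2 was over 500 on both. Of 6 epithelial markers only Epcam reached 500, on the knock out array, and their summed signal was 472 on the wild type array and 1880 on the knock out array (Cdh1 was under 100 on both arrays). The part of such cells in the values below was not tested.

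Mitosis in vertebrate cells is started by Cdk1 bound to cyclins A and B. Plk1 and the Aurora kinases build the spindle, the spindle checkpoint holds back the anaphase-promoting complex until every kinetochore is attached, and destruction of cyclin B and securin then lets the chromatids part and the cell divide. The genes of these proteins are repressed in resting cells and transcribed mainly in late S and G2 phase, so that their RNA in a culture is widely used as a measure of how many cells are cycling.

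In Ebp1 knock out MEFs most mitosis and spindle genes had a slightly lower signal than in wild type MEFs. Of the 45 genes, 35 had a log2 ratio below 0 and 10 above 0, which is 77.8% below 0, and among all 10067 genes with a mean signal of at least 100, a minimum that all 45 met, 58.7% were below 0. The median log2 ratio was -0.24 for the 45 genes and -0.07 for those 10067. The single values ran from -0.54 for Cdc25c to 0.31 for Ube2c, so that none of the 45 differed by more than 1.5-fold, against 10.4% of the 10067 genes. In RNA from a whole culture, fewer dividing cells and less of these RNAs in each dividing cell cannot be told apart.

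None of the 31 genes that reached 500 on at least 1 array, the minimum used in the study, was over 2-fold apart, while 1.81% of the 5014 genes of the array that reached it were (1.06% lower and 0.758% higher). With a mean signal of at least 500, 29 of the 45 were left, of which 21 were below 0 (72.4%, against 57.2% of 4604 genes). With quantile normalization 17 of the 29 were below 0, against 56.1% of all genes, and with loess 19 of the 29, against 55.8%, so that the excess over the array was small under the former. Their median was -0.17 against -0.05 for the 4604. The standard deviation across genes was 0.22 for the 29 and 0.31 for the 4604. None of the 29 was over 1.5-fold apart, against 6.19% of the 4604 (3.87% lower and 2.32% higher). The size of this shift has to be read beside the scaling of the arrays. Scaled to the 9 hybridization spike-in probe sets, whose signal in knock out MEFs was 1.31 times that in wild type MEFs, all log2 ratios move down by 0.39. Centred on the median signal of each array they move down by 0.11.

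**Figure D1:**
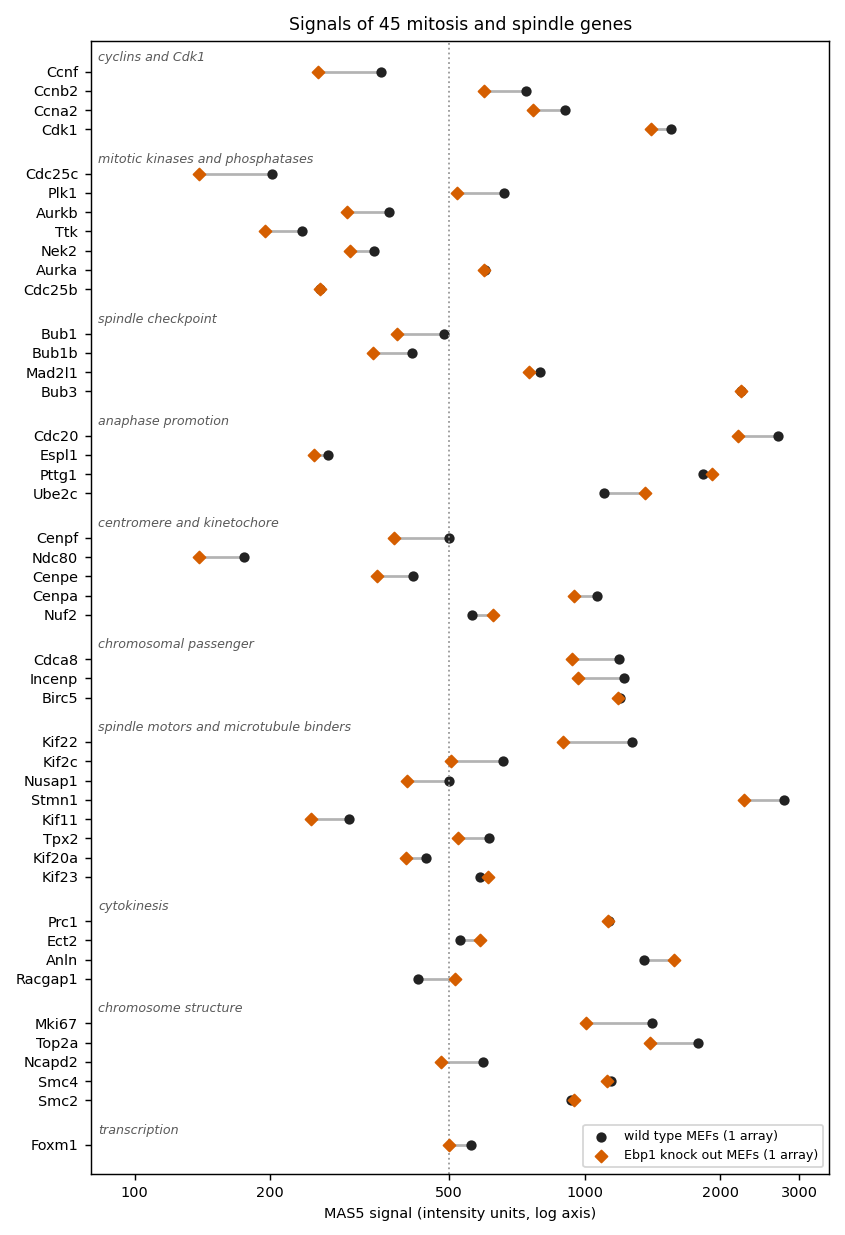
Signals of the 45 mitosis and spindle genes, in intensity units on a logarithmic axis, with wild type MEFs as black circles and Ebp1 knock out MEFs as orange diamonds, 1 array each, grouped by role. The dotted line marks 500, and the diamond lies to the left of the circle for 35 genes and to the right for 10, by less than 1.5-fold for each of them.

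A feature that the choice of genes did not use is the promoter sequence. The promoters of many mitotic genes hold a cell cycle genes homology region (CHR) close to the start site, which the repressor complexes of resting cells and the activators of G2 phase bind, and CCAAT boxes, which bind the factor NF-Y. RefSeq windows of 300 bases (GRCm38.p6), from 250 bases before to 50 after a start site, were found for 37 of the 46 genes, Ccnb1 included, in 40 windows. The genes with no entry were Aurkb, Ccna2, Cdc25c, Foxm1, Incenp, Kif20a, Smc4, Stmn1 and Tpx2. CHR letters (TTTGAA, or TTCAAA on the other strand, or TTCGAA, which reads the same on both) were in 32 of the 40, or 80%, against 19.2% of all 32851 windows. CCAAT, or ATTGG on the other strand, was also in 32 of the 40, against 37.4% of all. Both were found together in 29 of the 40, or 72.5%, and in 7.52% of all windows. Among 109 windows of other mitosis genes 29.4% held both, and among 43 windows of DNA replication genes 14.0%. These are matches of letters, not measured binding, and the windows of 1 gene can overlap.

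**Figure D2:**
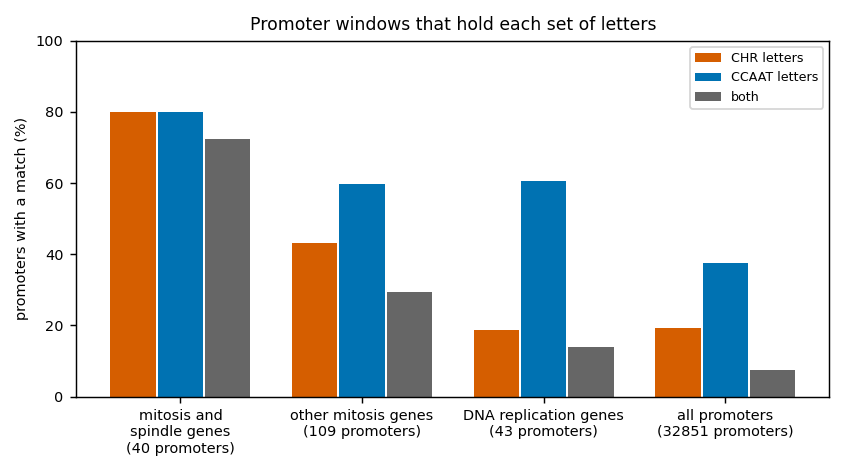
Share of RefSeq promoter windows, in percent, that hold CHR letters (orange), CCAAT letters (blue) or both (grey) in mitosis and spindle genes, other mitosis genes, DNA replication genes and all genes. Both were found in 72.5% of the windows of mitosis and spindle genes and in 7.52% of all windows.

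To show these letters in place, 5 windows are printed whose genes lay on both sides of 0, 3 below 0 and 2 above, with CHR and CCAAT letters in capitals. They are the windows of the cyclin gene Ccnb2 (chr9:70421505-70421804, minus strand), the kinase gene Plk1 (chr7:122159185-122159484, plus strand), the kinesin gene Kif22 (chr7:127042371-127042670, minus strand), the ubiquitin-conjugating enzyme gene Ube2c (chr2:164769679-164769978, plus strand) and the anillin gene Anln (chr9:22389157-22389456, minus strand), each written 5′ to 3′ in the direction of the gene.
Ccnb2: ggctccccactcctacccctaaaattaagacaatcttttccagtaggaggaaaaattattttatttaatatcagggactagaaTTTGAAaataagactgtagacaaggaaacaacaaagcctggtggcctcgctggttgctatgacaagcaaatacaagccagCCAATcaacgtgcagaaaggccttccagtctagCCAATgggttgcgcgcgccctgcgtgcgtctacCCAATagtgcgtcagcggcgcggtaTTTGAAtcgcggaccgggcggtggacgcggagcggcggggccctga
Plk1: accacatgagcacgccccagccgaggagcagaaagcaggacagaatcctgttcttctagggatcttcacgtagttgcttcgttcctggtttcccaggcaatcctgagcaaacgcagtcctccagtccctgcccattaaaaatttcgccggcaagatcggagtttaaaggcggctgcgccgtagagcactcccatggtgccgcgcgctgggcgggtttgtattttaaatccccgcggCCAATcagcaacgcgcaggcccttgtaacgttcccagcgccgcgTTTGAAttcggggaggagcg
Kif22: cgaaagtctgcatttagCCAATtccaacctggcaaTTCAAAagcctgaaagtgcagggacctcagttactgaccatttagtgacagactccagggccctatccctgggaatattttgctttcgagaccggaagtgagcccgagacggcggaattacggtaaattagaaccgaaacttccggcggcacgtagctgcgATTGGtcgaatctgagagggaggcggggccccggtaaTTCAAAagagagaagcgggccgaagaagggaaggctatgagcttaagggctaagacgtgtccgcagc
Ube2c: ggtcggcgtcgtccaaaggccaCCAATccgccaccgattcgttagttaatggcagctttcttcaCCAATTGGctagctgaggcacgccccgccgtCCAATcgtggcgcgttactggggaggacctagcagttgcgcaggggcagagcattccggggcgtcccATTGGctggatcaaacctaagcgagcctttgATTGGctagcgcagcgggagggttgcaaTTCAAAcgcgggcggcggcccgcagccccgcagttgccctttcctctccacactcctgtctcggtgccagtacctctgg
Anln: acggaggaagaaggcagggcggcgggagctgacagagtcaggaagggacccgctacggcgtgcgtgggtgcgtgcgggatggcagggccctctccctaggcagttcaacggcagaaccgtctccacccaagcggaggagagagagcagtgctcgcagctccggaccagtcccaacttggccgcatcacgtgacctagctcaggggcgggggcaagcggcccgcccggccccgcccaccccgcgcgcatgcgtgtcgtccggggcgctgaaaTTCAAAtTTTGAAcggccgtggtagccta
In the Ccnb2 window, where the start site counts as position 1, CCAAT began at positions -87, -54 and -21 and was followed by TTTGAA at position 5. In the Plk1 window 1 CCAAT at -14 was followed by TTTGAA at 31, and in the Kif22 window ATTGG at -54 by TTCAAA at -17. Ube2c, whose signal was higher in knock out MEFs, held 6 CCAAT matches, of which 2 overlap by 2 bases, and TTCAAA at -29. Anln, also higher, had no CCAAT but 2 CHR matches after the start site, at 22 and 29.
The ratios of genes with both motifs lay on both sides of 0. Among members with a mean signal of at least 500 and a window here, the median log2 ratio was -0.17 for 17 with both motifs in 1 window, 12 of them below 0, and 0.03 for 6 without, 3 of them below 0. Among genes outside the set it was -0.05 for 252 genes with both and -0.04 for 3519 without. Thus genes with these letters that are not in the set had a median close to that of other genes.

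Cyclins and Cdk1 were lower in knock out MEFs in each of the 4 genes measured. Cdk1, the kinase that starts mitosis, measured 1554 on the wild type array and 1405 on the knock out array (-0.15 as log2 ratio). Ccnb2, the gene of cyclin B2, had 742 and 596 (-0.32). Ccnf, whose cyclin is the substrate receptor of a ubiquitin ligase, had 353 and 255 (-0.47). All 4 genes were lower under each of the 5 scalings run. Median centring and spike-ins lower every ratio, so that only quantile normalization and loess could have turned a sign. However, Ccna2, the gene of cyclin A2, was lower on its reported probe set (904 and 769.7, -0.23) but higher on another one (696 and 832, 0.26), so that its direction depended on the probe set.

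Among the kinases and phosphatases, 6 of 7 genes were below 0, with a median of -0.28. Plk1, the Polo-like kinase of spindle assembly, had 663 on the wild type array and 521 on the knock out array (-0.35). Aurkb, which corrects faulty spindle attachments, had 368 and 296 (-0.31), and on its other probe set 175 and 111 (-0.65). The Aurora kinase of the spindle poles behaved otherwise, as Aurka had 602 and 597 (-0.01). Of the phosphatases that remove the inhibitory phosphates of Cdk1, Cdc25c had 202 and 139 (-0.54), the lowest log2 ratio of the 45 genes. That value came from a probe set with the suffix _x_at, which can bind related transcripts. The other Cdc25c probe set, without it, had a smaller difference in the same direction, with 150 and 130 (-0.20). Both Aurkb probe sets have the suffix _x_at or _s_at. Cdc25b had 258.5 and 258.5 (0.00). The checkpoint kinase gene Ttk and the centrosome kinase gene Nek2 had log2 ratios of -0.28 and -0.18 on signals under 500. In this group Aurka and Cdc25b thus lay closest to 0.

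Of the spindle checkpoint genes, 3 of 4 were below 0, and the kinase genes were the lower ones. Bub1, a checkpoint kinase, had 486 on the wild type array and 383 on the knock out array (-0.35). Bub1b, the gene of BubR1, had 413 and 338 (-0.29), and 380.0 and 250.1 (-0.60) on a second probe set. Mad2l1, which encodes the inhibitor Mad2, was little different (796 and 752, -0.08), and Bub3, which holds Bub1 and BubR1 at kinetochores, had 2221 and 2227.5 (0.00) and 325 and 367 (0.18) on a second probe set.

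Genes of anaphase went both ways. Cdc20, the activator of the anaphase-promoting complex, had 2688 on the wild type array and 2195 on the knock out array (-0.29). Its other probe sets had 1671 and 1634 (-0.03) and 187 and 121 (-0.62). Of these, only the one at -0.03 is without the suffix _x_at. Ube2c, the enzyme that starts ubiquitin chains for this complex, was higher, with 1102 and 1363 (0.31, the highest of the 45). Pttg1, the gene of securin, had 1832 and 1917 (0.07) and 551 and 735 (0.42) on a second probe set. Espl1, which encodes the separase that securin restrains, had 269 and 251 (-0.10). Ube2c had 1 probe set and all 3 of Pttg1 were above 0, but with spike-in scaling Ube2c turned to -0.09 and Pttg1 to -0.33, and with median centring Pttg1 to -0.04.

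Centromere and kinetochore genes were mostly lower, 4 of 5 being below 0. Cenpf, which encodes a large kinetochore protein that is made in G2 phase, had 499.6 on the wild type array and 378 on the knock out array (-0.40). Ndc80, the microtubule-binding subunit of the outer kinetochore, had 175 and 139 (-0.33), whereas Nuf2, its partner in the same complex, had 562 and 627 (0.16, or -0.24 with spike-in scaling). The kinesin gene Cenpe had 416 and 346 (-0.27), with a dimmer probe set in the other direction. Cenpa, the centromeric histone variant, had 1067 and 947 (-0.17), but 132 and 304 (1.21) on a second probe set. Ratios for genes of 1 complex thus differed in sign, as did those for probe sets of 1 gene.

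All 3 chromosomal passenger genes other than Aurkb were below 0. Incenp, the scaffold of the complex, had 1221 on the wild type array and 967 on the knock out array (-0.34), and Cdca8, the gene of borealin, had 1194 and 940.0 (-0.34). Both values came from probe sets with the suffix _x_at or _s_at, which can bind related transcripts, and without such probe sets Incenp was 0.00 and Cdca8 0.07. Birc5, the gene of survivin, was nearly equal (1201 and 1189, -0.01).

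Among spindle motors and microtubule binders, 7 of 8 genes were below 0, with a median of -0.29. Kif22, a chromosome-arm kinesin, had 1275 on the wild type array and 897 on the knock out array (-0.51). Its second probe set gave -0.23, and both of these have the suffix _x_at or _s_at. The third, without such a suffix and under 100 on both arrays, had 74.0 and 72.6 (-0.03). Stmn1, which encodes the microtubule-destabilising protein stathmin, had 2779 and 2262 (-0.30) and a log2 ratio of -0.25 on its other probe set. The spindle assembly factor gene Tpx2 had 615 and 522 (-0.24), and its 4 probe sets were all below 0. These 3 genes were lower on every probe set. Kif2c, a microtubule-depolymerising kinesin, was not. It had 659 and 505 (-0.38) on the reported probe set, of suffix _x_at, but a dimmer one without it had 203 and 289 (0.51). Kif11, the motor that pushes spindle poles apart, had 299.8 and 246 (-0.29), but 161 and 209 (0.38) on a second probe set. Nusap1 and Kif20a had log2 ratios of -0.31 and -0.15, while Kif23, a motor of the central spindle that takes part in cytokinesis, had 585 and 609 (0.06, or -0.05 with median centring and -0.33 with spike-ins).

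Cytokinesis genes were the group with the highest median, at 0.19, and 3 of its 4 genes were above 0. Anln, which encodes the contractile ring scaffold anillin, had 1353 on the wild type array and 1577 on the knock out array (0.22). Ect2, the exchange factor that activates RhoA at the equator, had 528 and 586 (0.15). Racgap1, its partner in the central spindle, had 427 and 514 (0.27) on the reported probe set and 352 and 287 (-0.30) on another. Prc1, which bundles central spindle microtubules, had 1134 and 1126 (-0.01). The median of this group was 0.08 with median centring and -0.21 with spike-ins, where all 4 genes were below 0.

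Of the genes of chromosome structure, 4 of 5 were below 0. Mki67, which encodes the proliferation marker Ki-67, a coat of mitotic chromosomes, had 1409.9 on the wild type array and 1009 on the knock out array (-0.48) on its 1 probe set. Top2a, the topoisomerase that untangles chromatids, had 1789 and 1399 (-0.35), and a dimmer probe set was close to equal (219.5 and 228, 0.05). Both are widely used markers of proliferating cells. The condensin gene Ncapd2 had 594 and 479.9 (-0.31) and a log2 ratio of 0.26 on a second probe set, but the condensin ATPase genes did not share this difference, as Smc2 had 931 and 947 (0.02) and Smc4 1146 and 1123 (-0.03). Smc4 was over 1.5-fold higher on its 2 other probe sets, with 792 and 1360 (0.78) on one of them and 111 and 243 (1.13) on the other. Foxm1, which encodes the transcription factor that activates many G2 and M phase genes, had 559.5 and 499 (-0.17), while its other 3 probe sets were not below 0.

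**Figure D3:**
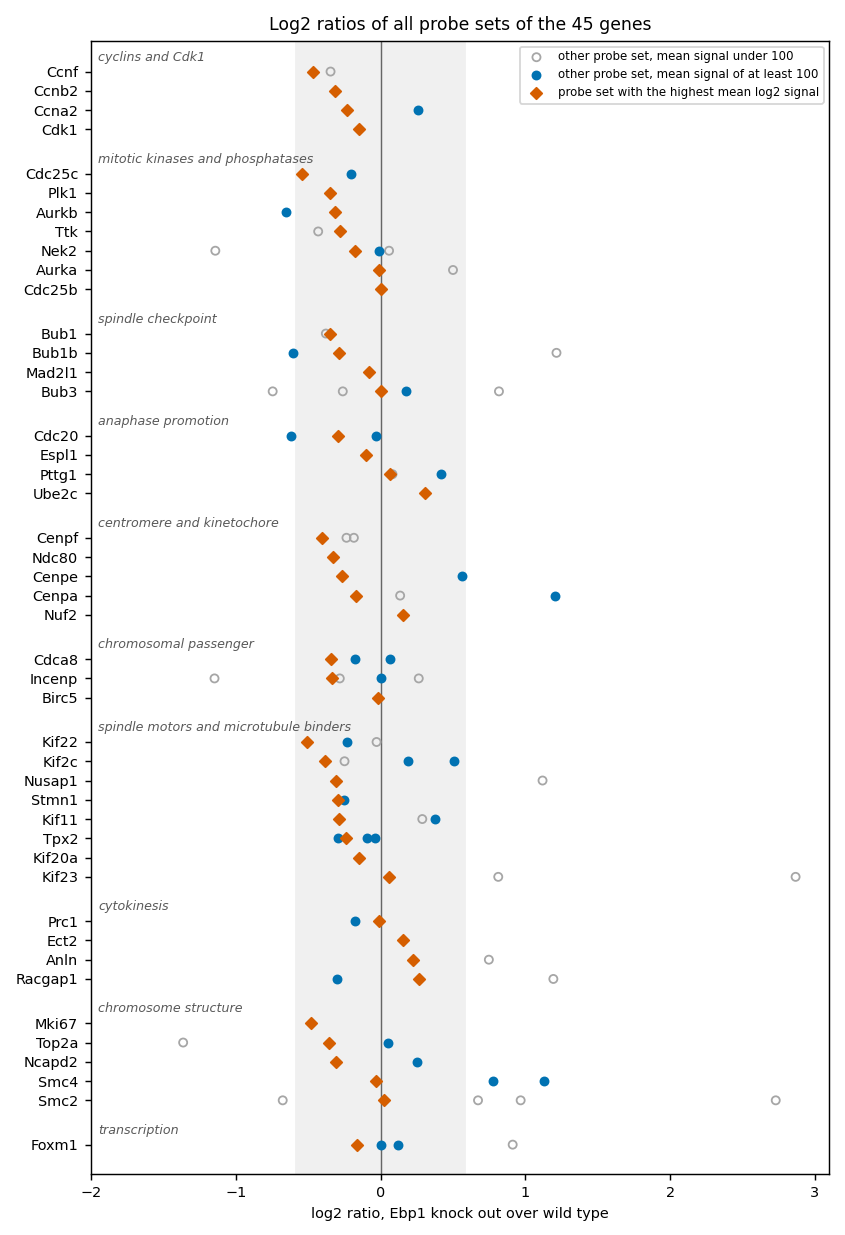
Log2 ratios (knock out against wild type) of all 106 probe sets of the 45 genes, grouped by role. Orange diamonds are the reported probe sets, blue circles others with a mean signal of at least 100, open circles those under 100, and the grey band spans 1.5-fold. All diamonds lie in the band, and points beyond a log2 ratio of 1 in either direction are 2 blue circles, of Cenpa and Smc4, and 8 open circles.

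Probe sets of one gene show how far a ratio within this pair of arrays depends on the probe set. They share the same RNA and arrays, so that they give no measure of error between cultures or arrays. Of 75 probe sets of these genes with a mean signal of at least 100, 49 were below 0 and 26 above. Among all genes with that minimum, each by its brightest probe set, 58.7% were below 0. Of 23 genes with at least 2 probe sets of that signal, 11 had all of them on one side of 0, 9 of these below, and 12 had them on both sides. The median absolute difference in log2 ratio between the brightest 2 of them was 0.34 for the 23 genes and 0.29 for 4166 genes of the array. For the array, the share of probe sets below 0 was not taken, nor that of genes with all probe sets on the same side. The counts of 75 probe sets and 23 genes thus cannot be set against like counts of the array. For 12 genes the reported probe set had the suffix _x_at or _s_at, and their median log2 ratio was -0.30, against -0.17 for the other 33, of which 25 were below 0. The mean over all probe sets of each gene was also taken in place of the brightest one. The 29 genes with a mean signal of at least 500 then had a median of -0.015, and all genes 0.04. Of the 29, 16 were below 0, against 43.8% of all genes with that minimum.

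Across the 4 other scalings of the arrays the median of the set stayed below that of all genes, the difference of medians being -0.12 to -0.09, although median centring and spike-ins move all ratios alike and so could hardly alter it. With other choices of probe sets the difference was smaller, at -0.06 when every probe set was averaged, -0.06 when those with the suffix _x_at or _s_at were left out and -0.02 for the mean over probe sets with a mean signal of at least 100. Under the deposited scaling and all 4 others, 31 of the 45 genes were lower, none was higher and 14 changed sign. The share of all genes lower under all 5 was not taken, so these counts cannot be set against the array. Under single scalings, 55.8% to 94.4% of all genes with a mean signal of at least 500 were below 0. For a gene below 0 as deposited, only quantile normalization and loess could change the sign, since median centring and spike-ins lower every ratio. The highest member, Ube2c at 0.31, lies within the common shift of 0.39 that spike-ins make, so that this shift alone put all 10 genes above 0 as deposited among the 14 and left none higher throughout. The other 4, Aurka, Birc5, Prc1 and Smc4, had log2 ratios from -0.03 to -0.01 as deposited.

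**Figure D4:**
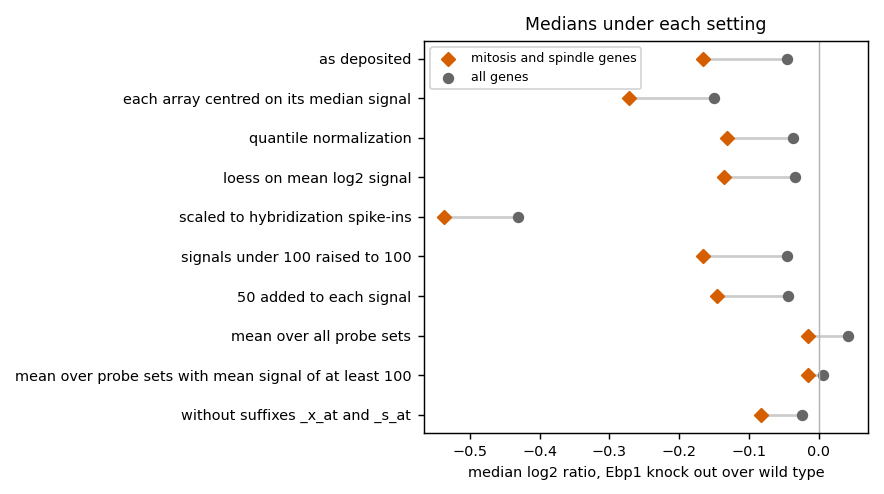
Median log2 ratio of the mitosis and spindle genes (orange diamonds) and of all genes (grey circles) with a mean signal of at least 500 under each way of scaling the arrays or choosing probe sets. The diamond lies to the left of the circle in each row, from -0.54 with spike-ins to -0.015 with the mean over probe sets.

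The rest of the mitotic machinery was examined in a list of 115 other mitosis genes, written by function, of which 113 were measured and 42 had a mean signal of at least 500. Of these 42, 27 were below 0 and 15 above, with a median log2 ratio of -0.11, where 57.2% of the 4604 genes were below 0. When every probe set was averaged that median turned to 0.012. Over 1.5-fold apart were 3 of the 42, all lower, against 6.19% of the 4604 genes (3.87% lower and 2.32% higher). These 3 genes are too few to be set against those shares. Ncaph, a subunit of condensin I, had 1113 on the wild type array and 626 on the knock out array (-0.83). Ncaph2, a subunit of condensin II, had 1193 and 703 (-0.76). Both values come from probe sets with the suffix _x_at, and the other probe sets of these genes gave smaller differences in the same direction, -0.28 for Ncaph and -0.34 to -0.23 for Ncaph2. Ckap2l, which encodes a spindle pole protein, had 709.6 and 453 (-0.65), and 60.6 and 126 on a dim probe set. The 5 with the highest mean signal were all within 1.5-fold, namely the tubulin gene Tubb5 (0.13), the Cdk-binding genes Cks1b (0.11) and Cks2 (-0.17), the gene Anapc5 of the anaphase-promoting complex (-0.23) and the importin gene Kpna2 (0.00). Of these, Tubb5, Cks1b and Kpna2 lie within the shift of 0.39 that spike-in scaling makes and would turn below 0 with it.

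Genes used at the preceding stage of the cell cycle were also mostly lower. Of 21 DNA replication genes with a mean signal of at least 500, 19 were below 0 (90.5%, against 57.2% of the 4604 genes). Their median log2 ratio was -0.17, against -0.05 for the 4604. When every probe set of a gene was averaged, the median was -0.12 for DNA replication genes and -0.015 for mitosis and spindle genes. Without probe sets of suffix _x_at or _s_at the medians were -0.13 and -0.08. Ccne1, the gene of cyclin E1, was the only one of the 21 DNA replication genes over 1.5-fold apart. It had 1533 on the wild type array and 982 on the knock out array (-0.64), on a probe set with the suffix _x_at. Its other probe set, without that suffix, had 604 and 431 (-0.49). Of 4 genes of CDK inhibitors with that signal, Cdkn1c, which encodes p57Kip2, was the only one over 1.5-fold apart, with 453 and 798 (0.82) on its 1 probe set. Cdkn2a, which was under 500 on both arrays and is named after its values were seen, had 109 and 435 (2.00). The study also lists Cdkn2a as higher in knock out MEFs, by another fold, although its methods state a minimum of 500. What lies behind that mismatch was not tested. Whether the 3 lists differ from one another was not tested, since 1 array per genotype allows no test.

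**Figure D5:**
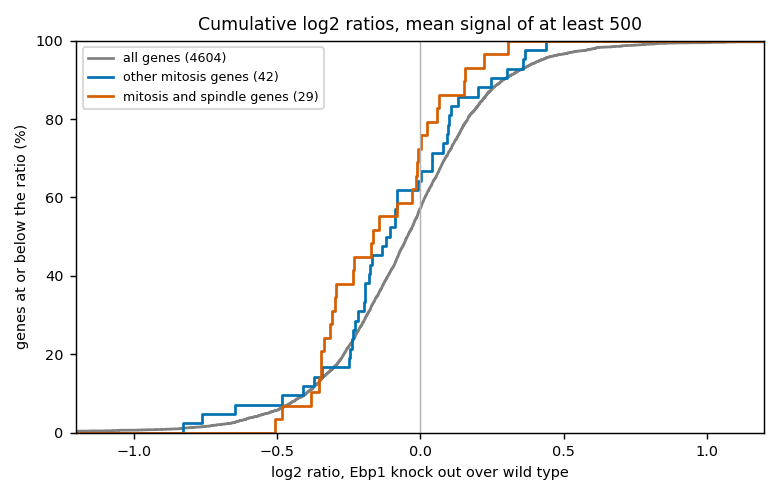
Cumulative share of genes, in percent, at or below each log2 ratio (knock out over wild type), for the 29 mitosis and spindle genes, 42 other mitosis genes and all 4604 genes with a mean signal of at least 500. The curve of the 29 genes crosses 0 at 72.4% and that of all genes at 57.2%, and the axis leaves out the few genes of the array beyond 1.2.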

How the data were processed

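Total RNA of 1 wild type and 1 Ebp1 knock out MEF culture was labelled with biotin and hybridized to Affymetrix mouse arrays. The deposited values are linear signal intensities per probe set, made by the authors with MAS5 from perfect-match and mismatch probes and scaled to a constant target intensity on each array. The mean without the lowest and highest 2% was 249.9 on both arrays. Detection calls were not used here.

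Control probe sets were left out. Of 45037 others, 34945 had 1 gene symbol (updated through Entrez identifiers with RefSeq GRCm38.p6), 932 several and 9160 none here. Signals under 100 were taken as low, as were 57.9% of the wild type and 57.1% of the knock out probe sets. The mean signal of a gene is the geometric mean of both arrays. Depth has no meaning for arrays, and their number limits the precision. Calls at 500 and 2-fold follow the study's methods, without its p-value. No test was possible.

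The genes, lists and thresholds were chosen with earlier results of these arrays known. All members could be named, and of other lists genes over 1.5-fold apart with a mean signal of at least 500 and the 5 brightest other mitosis genes. Cdkn2a was named outside this rule. Alternatives were median centring, quantile normalization, loess (fraction 0.3), spike-in scaling, signals raised to 100, 50 added, other minimum signals and other probe set choices. The 2-fold calls were tested on simulated data with large known changes in bright genes. That simulation did not cover small shifts of medians or counts below 0. Tables were handled with pandas 2.3.3 and numpy 2.4.6 in Python 3.11.15, loess with statsmodels 0.14.6 and plots with matplotlib 3.10.9.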

Additional observations from a re-analysis of the deposited data

How the results depend on the processing

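No paired analysis was possible because each genotype has a single array. Medians that differed by over 0.1, counts outside 1.5 times and single ratios over 1.5-fold apart were called moved. The median of the mitosis and spindle genes (-0.17, 29 genes) was -0.27 with median centring, -0.54 with spike-ins (25 genes) and -0.015 with the mean over all probe sets or over those with a mean signal of at least 100, and it kept its sign under every alternative run. The count below 0 (21 of 29) was 35 of 45 with a minimum of 100 or none and 12 of 16 with 1000. The count over 1.5-fold, 0 of 29 as reported, was 2 of 29 under median centring and 11 of 25 under spike-in scaling. It was 3 of 29 when every probe set was averaged and 1 of 29 when only those of at least 100 were. The share of all genes over 1.5-fold was not taken under these settings, so these counts cannot be set against the array. Spike-in scaling put 94.4% of all genes below 0, against 57.2% as deposited. Over 2-fold, also 0 as reported, was 1 gene when all probe sets were averaged, namely Kif23 at 1.25 through dim probe sets. Other mitosis genes (median -0.11) were at 0.012 with the mean over all probe sets and -0.49 with spike-ins, and DNA replication genes (-0.17) at -0.28 with median centring and -0.57 with spike-ins. Of 404 values of single genes, 7 moved and 44 changed sign. Median centring and spike-ins move all ratios by 1 common factor each, and what lies behind other changes was not tested.  For 16 of the 45 genes the mean signal was between 100 and 500, which is not low by the limit of 100. How far such signals limit the ratios of these genes was not tested.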
